A study of Mus musculus with 12 samples.

Results

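The 218 regions described here carried acetylation of lysine 27 of histone H3 (H3K27ac) in mouse mesenchymal stem cells (MSCs) kept at 21% oxygen (normoxia), and shared no base with any H3K27ac peak called in MSCs kept at 2% oxygen (hypoxia). They are called normoxia-only peaks. They made up 1.41% of the 15421 H3K27ac intervals called at either oxygen level and 1.47% of the 14832 intervals of the normoxia list. Of the other intervals, 14614 were called at both oxygen levels (shared peaks) and 589 in hypoxia alone (hypoxia-only peaks, 3.82% of the 15421). Members were chosen by the authors' calls at both oxygen levels, a peak in normoxia and none in hypoxia, so the calls and their scores describe the members and are not a finding about them.

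The cells were taken from wild-type mice of 3-5 months, labelled as bone-marrow MSCs and sorted, per the study's methods, from endosteal bone without CD45 and TER-119 and with CD140a and Sca-1. The labels give culture at either oxygen level, a passage on day 5 and the sort on day 12. By the study's methods, all cells were cultured in hypoxia until the sort. Only then were they split, and cultured in hypoxia or normoxia for a further week. The methods also state that all the mice were male. Each mark was profiled by chromatin immunoprecipitation and sequencing (ChIP-seq) in 2 libraries at each oxygen level, beside 4 input libraries, 12 in all. The labels separate the groups of a mark by the oxygen level alone. The study asked how oxygen changes histone acetylation in these cells, and assigned peaks to their closest genes. The files give 1 peak list per group and no values per library, so depth and replicate spread are unknown here and no difference below has a replicate check. The MSC label was set beside markers: 10 of 12 mesenchymal stromal genes had an H3K27ac peak at a start at both oxygen levels, against 0 of 6 haematopoietic and 0 of 4 endothelial genes.

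H3K27ac is laid down by the acetyltransferases p300 and CBP and marks active enhancers and promoters. H3K4me3, trimethylation of lysine 4, sits mainly at promoters, so acetylated regions away from it are commonly read as candidate enhancers. In stromal cells, enhancers are known to be bound by AP-1, TEAD, RUNX and C/EBP factors, which act in growth signalling, mechanical sensing, bone formation and fat formation.

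Stretches of a few normoxia-only peaks are shown because they hold the AP-1 sequence TGANTCA, read on both strands, whose 7 letters are in capitals. Among peaks over 1000 bp from H3K4me3, a set chosen after seeing the data, the share with these letters differed most between the classes. Positions are on GRCm38 (mm10), plus strand, and the letters come from the RefSeq copy of that assembly. The member nearest Bach1 (chr16:87784008-87784214), a repressor of antioxidant genes, is among the highest-scoring members. Those nearest Zfp648 (chr1:154065255-154065517), Ripk2 (chr4:16477356-16477462) and Mtdh (chr15:33906909-33907208) were chosen after their values were seen, as members with 3 matches in the central 500 bp. All of these stretches lay outside protein-coding genes.
Bach1: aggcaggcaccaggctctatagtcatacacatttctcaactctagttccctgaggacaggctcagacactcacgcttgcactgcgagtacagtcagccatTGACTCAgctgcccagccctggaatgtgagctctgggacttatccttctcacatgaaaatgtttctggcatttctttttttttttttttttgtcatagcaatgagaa
Zfp648: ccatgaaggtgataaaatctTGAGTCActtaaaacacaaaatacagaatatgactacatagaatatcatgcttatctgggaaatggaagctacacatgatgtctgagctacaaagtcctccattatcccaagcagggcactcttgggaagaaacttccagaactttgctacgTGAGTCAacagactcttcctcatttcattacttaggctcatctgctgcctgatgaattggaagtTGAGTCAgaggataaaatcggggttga
Ripk2: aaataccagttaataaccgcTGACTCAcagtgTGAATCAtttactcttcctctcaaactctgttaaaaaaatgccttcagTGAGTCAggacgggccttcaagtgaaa
Mtdh: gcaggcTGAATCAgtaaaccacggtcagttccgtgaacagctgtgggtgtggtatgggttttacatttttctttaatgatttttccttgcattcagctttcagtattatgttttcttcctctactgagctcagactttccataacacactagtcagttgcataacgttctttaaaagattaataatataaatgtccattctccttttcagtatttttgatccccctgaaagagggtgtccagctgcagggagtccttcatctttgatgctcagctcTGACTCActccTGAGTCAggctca

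The promoters of Aspm and Dbf4 are shown as the contrast, since these are members at H3K4me3 that held a coding start. Aspm encodes a spindle-pole protein of dividing neural and other progenitors, and Dbf4 the activator of the Cdc7 kinase that starts DNA replication. The 300 bases before and just after each start come from the RefSeq table (GRCm38.p6), with each CG in capitals. Aspm (chr1:139454523-139454822, plus strand) held 19 CG pairs and Dbf4 (chr5:8422667-8422966, minus strand) held 42. Over the promoters of that table the median was 7, with quartiles of 3 and 20, so Aspm lay within the quartiles. Each promoter lay whole within its member.
Aspm: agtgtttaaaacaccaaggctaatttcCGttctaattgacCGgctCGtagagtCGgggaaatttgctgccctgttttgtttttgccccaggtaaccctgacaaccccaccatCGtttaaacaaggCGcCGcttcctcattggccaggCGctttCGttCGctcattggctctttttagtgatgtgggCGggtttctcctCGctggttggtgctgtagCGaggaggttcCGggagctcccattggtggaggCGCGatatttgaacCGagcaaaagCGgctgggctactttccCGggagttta
Dbf4: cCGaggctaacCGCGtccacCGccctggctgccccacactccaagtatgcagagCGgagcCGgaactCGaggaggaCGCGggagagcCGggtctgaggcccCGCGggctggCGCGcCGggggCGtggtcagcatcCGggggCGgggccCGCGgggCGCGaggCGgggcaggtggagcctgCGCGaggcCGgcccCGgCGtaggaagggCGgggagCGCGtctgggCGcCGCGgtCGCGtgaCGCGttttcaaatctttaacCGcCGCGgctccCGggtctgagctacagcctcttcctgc

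The normoxia-only peaks were low in the score that the authors give each peak, which had a lowest value of 50. Their scores ran from 50 to 116 with a median of 56, and shared peaks had a median of 103 in the same list. Hypoxia-only peaks were similarly low in the hypoxia list, with a median of 58 and quartiles of 53 and 68. A score of 60 or lower was found in 141 members (64.7%), a score over 80 in 17, and 100 or over in 4. None had the score of 1000, which 2802 shared peaks (19.2%) had. How the score is defined is not given in the sources used here. Just inside the limit of the call stood 26 members at 50. Just outside it stood 75 shared peaks with a hypoxia score of 50, whose normoxia scores ran from 50 to 83 with a median of 50. The score was compared between the oxygen levels in 7954 shared peaks with a normoxia score no higher than 116. These were a subset, since 57.5% of all shared peaks had a normoxia score of 116 or lower. Shared peaks with a hypoxia score above a fixed limit were left out as well. How the scores of the others differed is not given here. Within the subset the score differed by 6 or more, in either direction, in 3576 peaks. It was higher in normoxia by 6 or more in 777 peaks (9.77% of the subset). The normoxia score minus the hypoxia score had a median of -1, with quartiles of -12 and 0. The median excess of the members over the lowest score was 6.

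**Figure D1:**
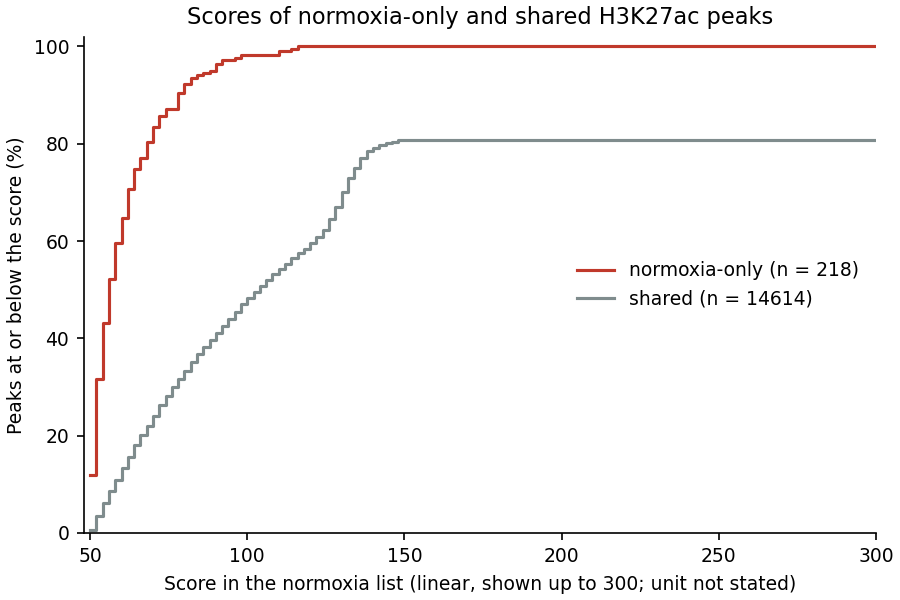
Cumulative share of peaks (vertical axis, %) at or below each score in the normoxia list (horizontal axis, linear, shown up to 300; the unit is not stated) for normoxia-only (red) and shared (grey) H3K27ac peaks. The red line reaches 64.7% at a score of 60 and ends at 116, while the grey line stays below 100% because 19.2% of shared peaks had a score of 1000.

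The highest score, 116, belonged to a peak of 10000 bp that touched the promoter peak of Gcnt2, an enzyme that branches glycan chains. A peak between genes, nearest Gm17555, followed with 114 and a width of 6500 bp. Both Bach1 and Prkdc, the catalytic subunit of DNA-dependent protein kinase, had a peak with a score of 109. B430305J03Rik had 97. Hes1, a transcriptional repressor downstream of Notch, had 95. Efna5, an ephrin ligand, and Btg4 had 92 each. Hif1a, the oxygen-regulated subunit of the hypoxia-inducible factor, had 90, and both intervals at Aspm had 89. These members were as mixed in place as in gene: the Gcnt2, Hes1, Btg4 and Hif1a peaks touched a shared peak with H3K4me3, whereas the Bach1 peak lay 81500 bp from any hypoxia peak. The Efna5 member (chr17:61202501-61205000) lay 1676144 bp from the nearest coding start, and 54.1% of its bases were repeat-masked.

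Most normoxia-only peaks lay away from promoters. Of the 218, 143 (65.6%, 95% Wilson interval 59.1 to 71.6%) were over 1000 bp from any H3K4me3 peak, and these are called distal. The same share was 43.6% (39.7 to 47.7%) for hypoxia-only and 36.0% (35.3 to 36.8%) for shared peaks. An H3K4me3 peak overlapped 23 members (10.6%, 7.13 to 15.3%; 2.86% of the 35 left without the lowest-scoring 25% of the normoxia list), against 29.9% of hypoxia-only and 49.8% of shared peaks. A further 49 members (22.5%) touched an H3K4me3 interval end to end without overlap, and 3 were within 1000 bp of one. All 23 members that overlapped H3K4me3 had it at both oxygen levels. The intervals around the shares cover counting error only, since neighbouring peaks are not independent.

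**Figure D2:**
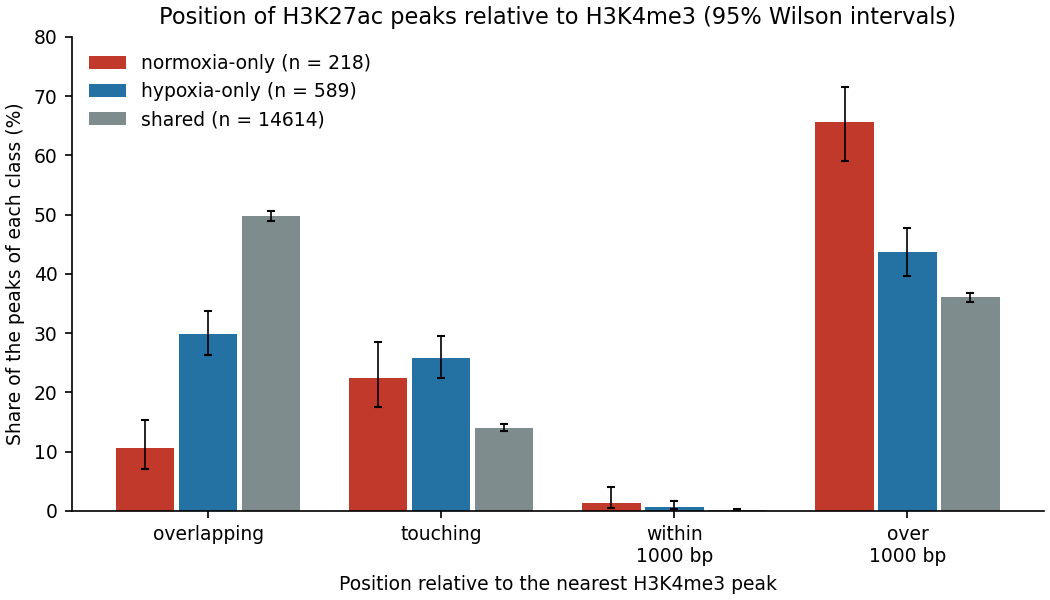
Share of normoxia-only, hypoxia-only and shared H3K27ac peaks (vertical axis, %, bars from 0 with 95% Wilson intervals) by position relative to the nearest H3K4me3 peak: overlapping, touching end to end, within 1000 bp, or over 1000 bp away. Normoxia-only peaks had the highest distal share of the 3 classes, 65.6%, and the lowest overlapping share, 10.6%.

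Distances to genes followed the same order. The median distance from a member's edge to the nearest protein-coding start was 20354.5 bp (interval 12965 to 28833), against 2558 bp for hypoxia-only and 558.5 bp for shared peaks. It was 6937 bp with all annotated genes, 34651 bp for the 153 members with no hypoxia peak within 1000 bp, and 35327 bp for the 35 members left without the lowest-scoring 25% of the normoxia list. A start lay inside or within 1000 bp of 39 members (17.9%, 13.4 to 23.5%), against 38.0% and 52.8%, and the members' share was 29.4% with all annotated genes and 11.4% for those 35. It lay inside 19 members (8.72%), against 28.0% of hypoxia-only and 49.1% of shared peaks. For 36 members (16.5%) it was over 100000 bp away, against 9.85% and 8.57%. The median distance to H3K4me3 was 24250 bp (13000 to 32500; 45500 bp for the 153 and 63000 bp for the 35), with an interquartile range of 0 to 71125 bp, while over 50% of the peaks of both other classes overlapped or touched it, which put their medians at 0. Once only distal peaks were compared, the gap narrowed, with a median of 41612 bp (32318 to 53003) to a coding start for members, 31777 bp (27087 to 38595) for hypoxia-only and 35410 bp (33670 to 37125) for shared peaks.

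**Figure D3:**
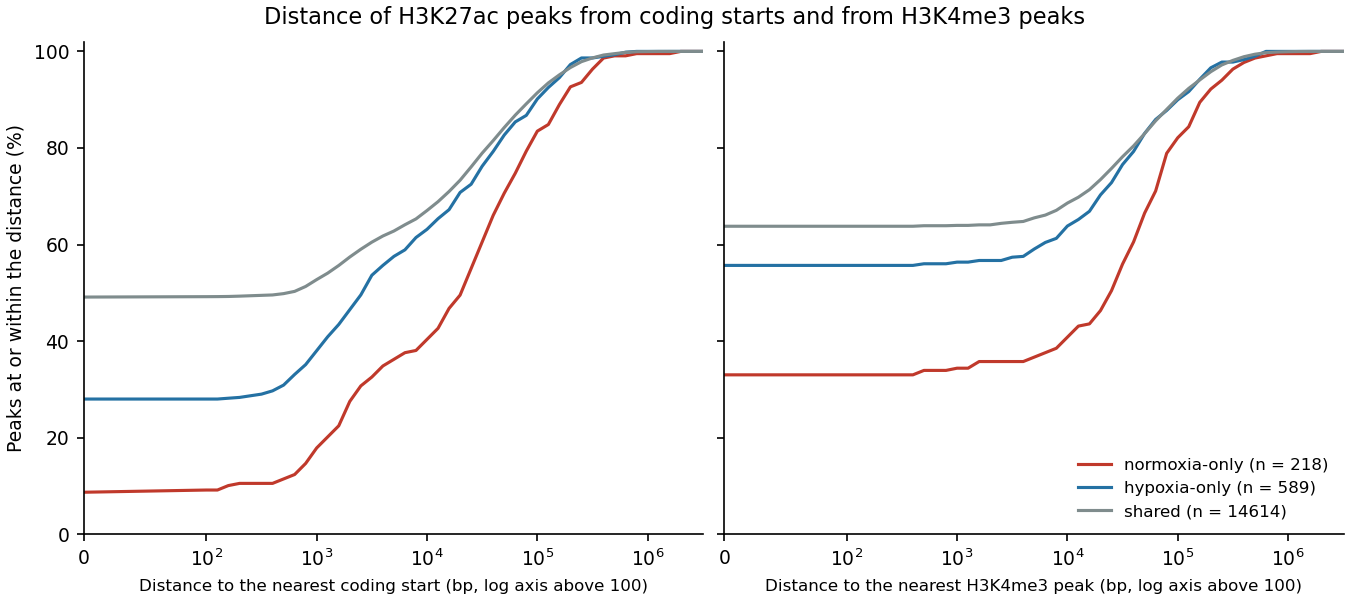
Cumulative share of H3K27ac peaks (vertical axis, %) at or within each distance (horizontal axis, bp, logarithmic above 100) of the nearest coding start (left) and the nearest H3K4me3 peak (right), for the 3 classes. The normoxia-only line starts lowest in both panels, with 8.72% of peaks holding a start, and runs below the others until the lines meet at 100%.

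Inside genes, the members lay mainly in introns. A protein-coding gene overlapped 132 members (60.6%, 53.9 to 66.8%), against 72.7% of hypoxia-only and 79.4% of shared peaks. Of their bases, 60.2% were intronic, 4.95% exonic and 34.9% between genes, and the exonic share was 10.7% in hypoxia-only and 7.97% in shared peaks. The midpoint fell in a gene for 127 members, and for 101 of these (79.5%) it was in an intron of the gene's representative transcript. Intron 1 held 45 of the 101 (44.6%, 35.2 to 54.3%), close to the 47.9% (42.3 to 53.7%) of hypoxia-only peaks, against 61.5% of shared peaks in introns. From the start to the end of the gene, in 5 equal parts, the counts of midpoints were 40, 27, 23, 17 and 20. The median midpoint lay 35.8% of the way along the gene (26.0 to 46.9%), against 28.8% (23.7 to 36.5%) for hypoxia-only peaks, whose interval overlapped it, and 11.2% for shared peaks. Among distal peaks the intervals included the shared value: 29.2% (19.6 to 41.2%) of members in introns were in intron 1, against 27.7% of shared peaks, and the median position was 47.7% (40.7 to 60.4%) against 50.9%.

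The widest members included both intragenic and promoter-flanking peaks. P4ha1, a subunit of the collagen prolyl hydroxylase that works in the endoplasmic reticulum, had a normoxia-only peak of 24000 bp with a score of 63, with its midpoint in intron 9 of a 15-exon transcript and 10000 bp from the nearest hypoxia peak. A peak of 24000 bp over Prrc2a and Bag6 touched the shared promoter peak there and had a score of 51. Nptn, which encodes the adhesion molecule neuroplastin, had 23500 bp, a score of 53 and a coding start inside, without H3K4me3 closer than 21500 bp. Ppp3ca, the catalytic subunit of the phosphatase calcineurin, had 18000 bp in intron 2. The next were Thbs1 with 16000 bp, Nav1, which hosts a peak nearest the start of Ipo9, with 15000 bp, Tbl1xr1 with 15000 bp, Vapa and Rspo2 with 14500 bp each, and Foxp1 with 13500 bp. Their scores ran from 50 to 58 apart from P4ha1. Over all members the median width was 3500 bp, with a range of 500 to 24000 bp, the same median as in the other classes. In distal peaks it was 4000 bp (3500 to 4500), against 4500 bp (4000 to 5000) in hypoxia-only and 5500 bp in shared distal peaks. A single step of 500 bp was the width of 13 members (5.96%, 3.52 to 9.93%), near the 4.58% of hypoxia-only peaks and against 0.534% of shared peaks.

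Some members touched a peak that was called at both oxygen levels, at a share near that over all H3K27ac intervals. A shared H3K27ac peak touched 63 members (28.9%, 23.3 to 35.2%), 10 of them on both sides, against 26.2% of all intervals, 25.6% of shared and 38.7% (34.9 to 42.7%) of hypoxia-only peaks. Of the 63 members, 54 had a touching shared peak that carried H3K4me3. Joined to the H3K27ac peaks they touched end to end, the 63 stretches had a median length of 9000 bp, and the median length called in hypoxia within a stretch was 4000 bp. For 44 members the neighbour carried H3K4me3 and the member did not, and relative to the nearest start 21 of these lay downstream, 22 upstream and 1 held it. Of the 21 downstream ones, 19 overlapped the body of that gene, as at Tbl1xr1, a subunit of a nuclear corepressor complex, Thbs1, an extracellular matrix protein that activates TGF-beta, Jag1, a Notch ligand (9000 bp), Itgb5, an integrin subunit (5000 bp), and Ccn2, a matricellular protein (2000 bp). Of the 22 upstream ones, 9 overlapped the body of the gene of the nearest start. Upstream lay those of Hes1 (6500 bp), outside the gene, and Hif1a (2000 bp), inside the gene before a later annotated start. At Hif1a the stretch was 15000 bp, of which 13000 bp was called in hypoxia too, and at Gcnt2 12500 bp, of which 2500 bp was.

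The 23 members at H3K4me3 form a small promoter group. A coding start lay inside 14 of them. For 12 no hypoxia H3K27ac peak came within 1000 bp, and 11 of the 12 held a start: Aspm, Acad9, Dbf4, Arhgap24, Sinhcaf, Pex11g, Zw10, Ccpg1, Cd24a, Snrpc and Lrrc73. Among these, Aspm and Dbf4 act in cell division and replication as said above, and Zw10 in the spindle checkpoint, while Acad9 is a mitochondrial protein needed for complex I assembly, Cd24a a surface glycoprotein, and Snrpc a component of the U1 splicing particle. Their scores ran from 51 at Sinhcaf to 89 at Aspm, with 71 at Dbf4 and 68 at Acad9. Psrc1, which encodes a spindle protein, was the remaining one, with its start 142 bp away and a score of 51. The other 11 members at H3K4me3 touched a shared peak: Lmbrd1, Fubp3, Tent5b, Znrf1, L3mbtl3, 2610008E11Rik, Alkbh1, Cdc42bpb, Yaf2, Tubb6 and Prpf19. A start lay inside 3 of these, at Tent5b, Znrf1 and L3mbtl3. A further 5 members held a start without overlapping H3K4me3, at Fam110b, Nadk, Btg4, Nptn and Psma6.

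Some genes had more than 1 normoxia-only peak. Their number was not compared with the other classes or with an even spread of as many peaks. By nearest start the members fell to 215 genes, of which 3 had 2 and none had more. By gene body they lay in 141 genes, of which 2 had 2. In Prkdc both were intronic, a peak of 6500 bp with a score of 69 in intron 21 and a peak of 5500 bp with a score of 109 in intron 39 of an 86-exon transcript, 34000 bp apart. Mbnl1, a splicing regulator, had a peak of 5000 bp with a score of 57 that lay 44579 bp from the nearest start, and a peak of 2500 bp with a score of 50 inside the gene that touched a shared peak. The Aspm pair was a single stretch cut into touching intervals of 500 and 1500 bp, of which only the wider overlapped H3K4me3. Plcb1, a phospholipase C of G-protein signalling, held a member in intron 2 with a score of 72 and another in intron 32 with a score of 64, 630000 bp apart, and the second was nearest the start of Plcb4. For 18 of the 132 members in a gene the nearest start belonged to another gene.

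Few members lay close to another member. Whether they lay closer together than an even spread would give was not tested. Within 100000 bp of another member lay 10 of them, 2 touched another, and the median distance to the next was 3870 kb. Every autosome had some, from 4 on chromosome 19 to 19 on chromosome 1, and the X chromosome had 1. As a share of the normoxia list, they ran from 0.495% on X and 0.604% on chromosome 7 to 2.15% on chromosome 3.

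Some genes had peaks of both kinds. Whether they were more or fewer than an even spread would give was not tested. By nearest start, 8 of the 215 genes with a normoxia-only peak also had a hypoxia-only peak: Foxp1, Gm11146, Mbnl1, Prpf19, Rspo2, Tbl1xr1, Tnc and Zeb2. By gene body there were 5: Foxp1, Mbnl1, Prpf19, Rspo2 and Zw10. Rspo2, a secreted enhancer of Wnt signalling, held its hypoxia-only peak over a coding start (4000 bp, score 101) and its normoxia-only peak 83318 bp away within the gene (14500 bp, score 52). At Tnc, the matrix glycoprotein tenascin C, the hypoxia-only peak also held a start (3500 bp, score 52), and the normoxia-only peak lay 50986 bp away (2000 bp, score 50). The pair at Foxp1, a forkhead transcription factor, was distal on both sides, with scores of 51 and 50. At Mbnl1 the hypoxia-only peak was 12500 bp wide with a score of 63. At Prpf19, a ubiquitin ligase of the spliceosome, a normoxia-only interval of 1000 bp and a hypoxia-only interval of 15500 bp touched each other, both with a score of 55.

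**Figure D4:**
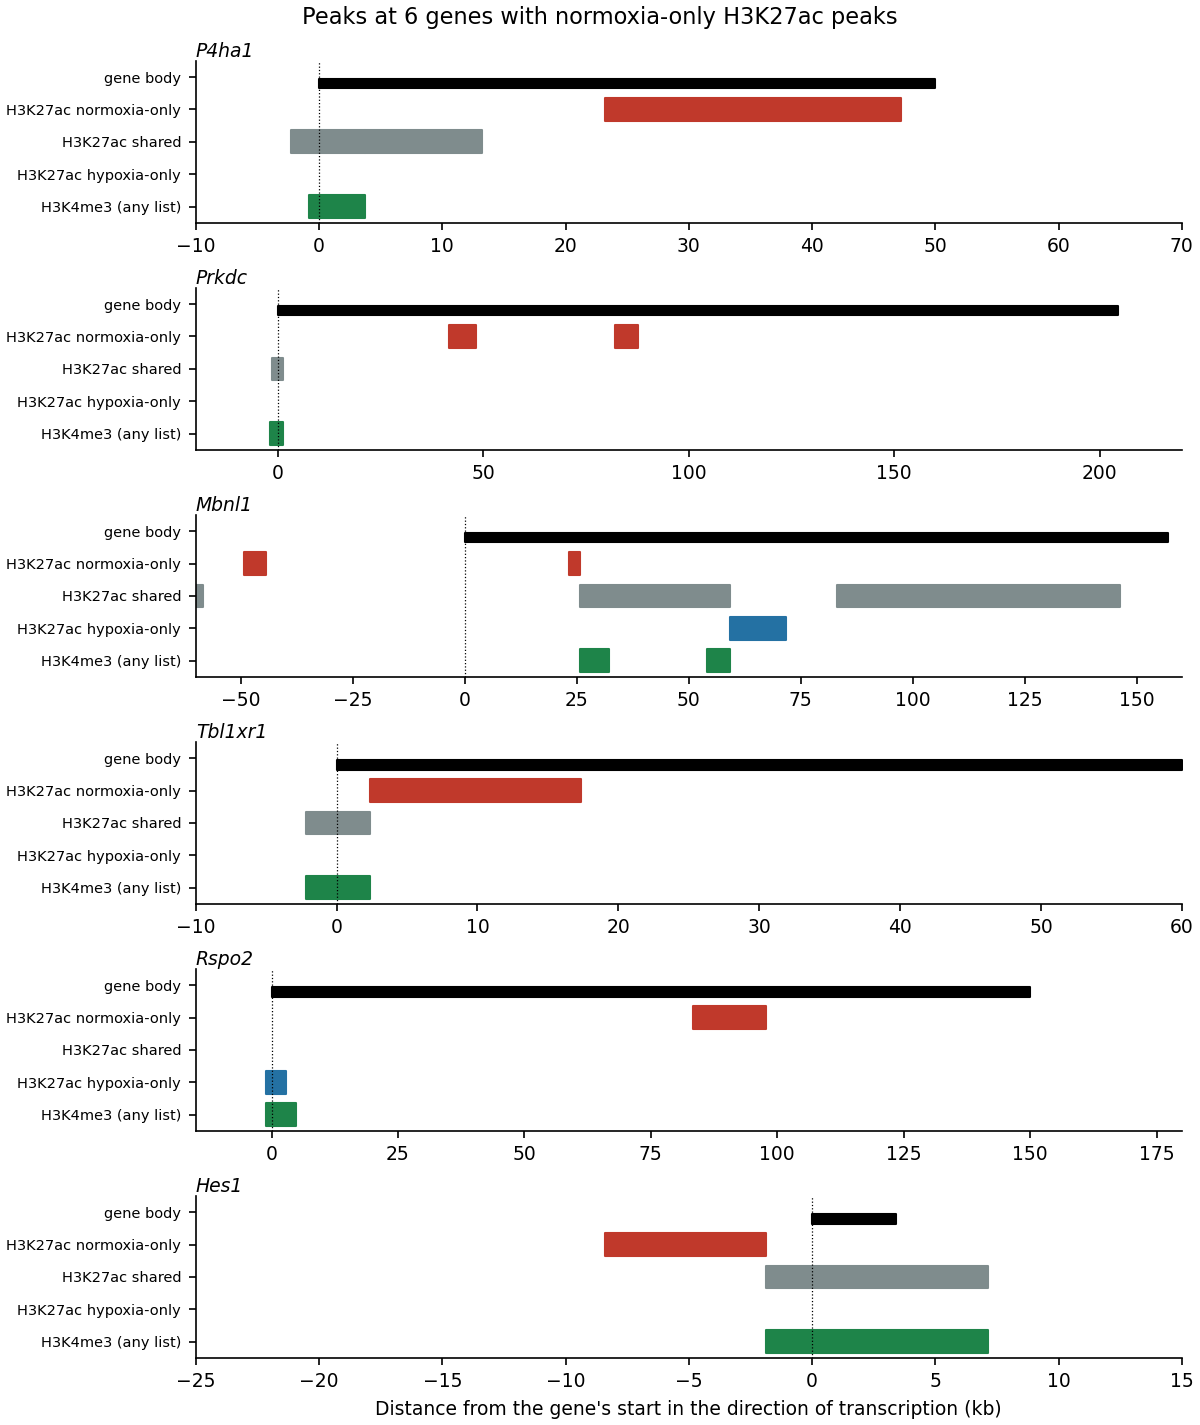
Intervals called at P4ha1, Prkdc, Mbnl1, Tbl1xr1, Rspo2 and Hes1, drawn to scale against the distance from the start of the annotated gene in the direction of transcription (horizontal axis, kb; the dotted line is the start). Rows give the gene body (black) and H3K27ac intervals that were normoxia-only (red), shared (grey) or hypoxia-only (blue), with H3K4me3 of either list (green). Normoxia-only peaks lie within the gene body at P4ha1, Prkdc and Rspo2, and beside the shared promoter peak at Tbl1xr1 (downstream) and Hes1 (upstream).

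None of the gene lists reported took more than 4 members. The lists came from pathways named in the study and from general knowledge of stromal cells, and the counts are given beside those of the other classes as a description. The MAPK cascade list, of 112 genes, had 0 members by nearest start, against 7 hypoxia-only (1.19%) and 177 shared peaks (1.21%), and 1 member by gene body, in Rasgrf2, a Ras exchange factor. A count of 0 of 218 allows a share of up to 1.38%, taking 3 counts as the limit.

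The hypoxia response list, of 50 genes, was nearest to 4 members (1.83%), against 7 hypoxia-only (1.19%) and 103 shared peaks (0.705%), and 0.739% of all intervals. They were P4ha1, Hif1a, Arnt2, a partner of HIF-type factors, and Rora, a nuclear receptor. Only the Hif1a member touched H3K4me3. The Rora member lay between genes, 265286 bp from the start with a score of 61, and the Arnt2 member spanned 10000 bp within the gene with a score of 50. The antioxidant list had 2 members, at Bach1 and at Txn2, mitochondrial thioredoxin, or 0.917%, against 5 hypoxia-only (0.849%) and 76 shared peaks (0.52%), and 0.538% of all intervals.

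For the matrix list, of 81 genes, the count was 4 members (1.83%), at Thbs1, Tnc, Ccn2 and P4ha1, against 12 hypoxia-only (2.04%) and 201 shared peaks (1.38%), and 1.41% of all intervals. TGF-beta signalling had 3, at Thbs1, Ccn2 and Ltbp2, or 1.38%, against 2 hypoxia-only (0.34%) and 119 shared peaks (0.814%), and 0.804% of all intervals. Ltbp2 encodes a matrix protein of the latent TGF-beta binding protein family. Wnt signalling had 3, at Fzd7, a Wnt receptor, Wls, which carries Wnt proteins to the surface for secretion, and Rspo2, or 1.38%, against 8 hypoxia-only (1.36%) and 90 shared peaks (0.616%), and 0.655% of all intervals. The osteogenic list had 3, at Tnc, Fosl2 and Fosl1, or 1.38%, against 4 (0.679%) and 81 (0.554%), and 0.571% of all intervals. AP-1 and immediate early genes had 3, at Fosl2, Fosl1 and Klf6, or 1.38%, against 2 (0.34%) and 78 (0.534%), and 0.538% of all intervals. Fosl2 and Fosl1 are themselves AP-1 subunits. Adhesion and actin genes had 2, at Tns3 and Itgb5, or 0.917%, against 5 (0.849%) and 221 (1.51%), and 1.48% of all intervals. Neither the adipogenic list (7 hypoxia-only peaks, 1.19%, and 58 shared peaks, 0.397%) nor the mitochondrial list (1, 0.17%, and 59, 0.404%) had a member. A gene on several lists, such as Thbs1, Tnc, P4ha1, Ccn2, Fosl1 or Fosl2, counts in each.

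In sequence, distal members differed from distal peaks of the other classes most in AP-1 letters in their central 500 bp. Over all members, the shares of RUNX and C/EBP letters differed from those of all intervals by a similar amount. The shares are described with counting intervals, and no test was run. AP-1 (TGANTCA, both strands) was found in 53 of 218 members (24.3%, 19.1 to 30.4%), against 13.1% of all 15421 H3K27ac intervals, 11.9% of hypoxia-only and 13.0% of shared peaks. Since most AP-1 matches lay in distal peaks, the distal peaks of each class were also compared, a choice made after seeing the data. There AP-1 was in 46 of 143 members (32.2%, 25.1 to 40.2%), against 15.6% (11.6 to 20.5%) of 257 hypoxia-only and 21.0% (19.9 to 22.1%) of 5265 shared peaks. In distal members it was in 28 of 67 between genes (41.8%, 30.7 to 53.7%) and in 18 of 76 in genes (23.7%, 15.5 to 34.4%). GC content was lower in distal members, with a median of 43.5% against 46.5% in hypoxia-only and 44.8% in shared distal peaks. Within distal peaks of under 45% GC the AP-1 share was 30.1% for members, 15.5% for hypoxia-only and 21.6% for shared peaks, and at 45% or over it was 36.0%, 15.6% and 20.3%. The 12 members with 2 or more matches were all distal. Of the 63 members that touched a shared peak, 11.1% (5.49 to 21.2%) had a match, and of the 155 others 29.7% (23.0 to 37.3%).

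C/EBP (TTGCNNAA) was in 31.5% of distal members (24.4 to 39.5%), against 21.0% (16.5 to 26.4%) of hypoxia-only and 21.2% (20.1 to 22.3%) of shared distal peaks, and the shares below follow that order. RUNX (TGTGGNT) was in 49.0% (40.9 to 57.1%), against 40.1% (34.3 to 46.2%) and 41.0% (39.7 to 42.3%). The antioxidant response letters (ARE, TGACNNNGC), which can hold a whole AP-1 match as TGACTCAGC, were in 25.9% (19.4 to 33.6%), against 15.2% (11.3 to 20.1%) and 17.0% (16.0 to 18.1%). The members' intervals overlapped those of hypoxia-only peaks for C/EBP, ARE and RUNX, and for RUNX those of shared peaks as well. All 3 intervals also overlapped for TEAD (GGAATG) and the HIF letters (HRE, ACGTG): TEAD was in 32.2% of distal members, 32.7% of hypoxia-only and 29.0% of shared peaks, and HRE in 22.4%, 17.9% and 21.7%. Over all 218 members, C/EBP was in 28.0% (22.4 to 34.3%), against 16.7% of all 15421 intervals, and RUNX in 44.5% (38.1 to 51.1%), against 32.5%. ARE was in 20.2% (15.4 to 26.0%), near the 18.7% of all intervals, and TEAD in 26.6% (21.2 to 32.8%), near 23.0%. HRE was in 18.8% (14.2 to 24.5%), below the 28.7% of all intervals. A match is a run of letters and not evidence of binding. The highest-scoring members did not carry AP-1 as a rule: of the 10 distal ones scoring highest, only those at Bach1 and Syk had a match, and among the 10 the ARE letters were in 5. At Bach1 the AP-1 match shown above lies within an ARE match.

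**Figure D5:**
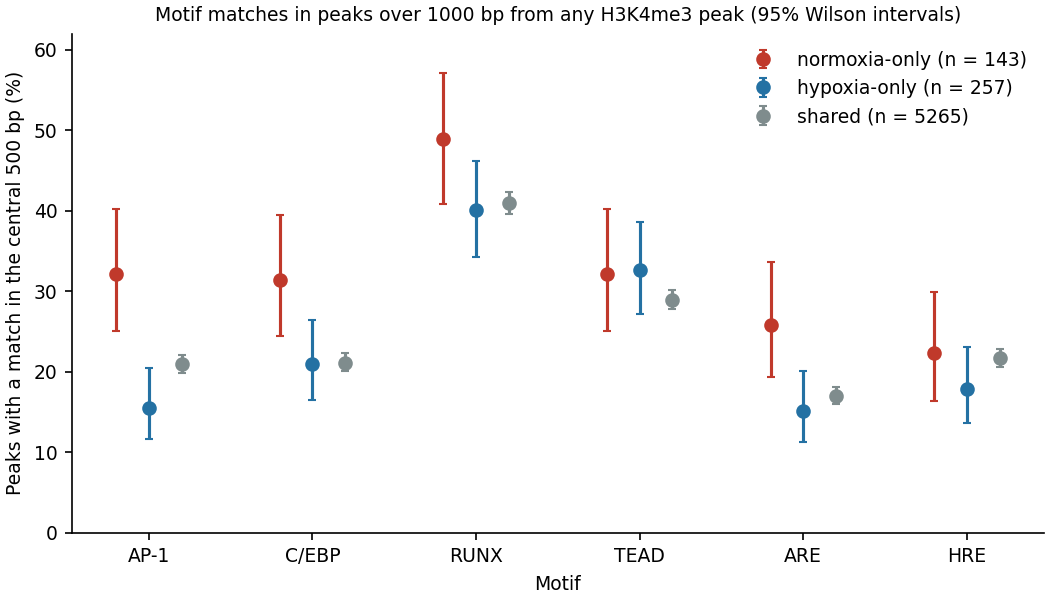
Share of distal H3K27ac peaks (over 1000 bp from any H3K4me3 peak; vertical axis, %) with at least 1 match to each motif (horizontal axis) in the central 500 bp, with 95% Wilson intervals, for 143 normoxia-only, 257 hypoxia-only and 5265 shared peaks. For AP-1 the normoxia-only point, 32.2%, has an interval that does not overlap those of the other classes, while for RUNX, TEAD and HRE all 3 intervals overlap. The distal set was chosen after seeing the data.

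Over whole peaks, normoxia-only intervals were lower in GC than either other class, with a median of 43.8% (43.0 to 44.6%) against 48.8% in hypoxia-only and 48.7% in shared peaks, and their ratio of observed to expected CG pairs was 0.197, against 0.237 and 0.316. Repeat-masked bases made up a median of 20.1% (18.9 to 21.6%), against 16.6% and 16.9%, but in distal peaks the value was 20.3% for members and 20.2% for shared peaks. The nearest hypoxia peak of any kind was 13750 bp away in the median: 63 members touched one, 2 were within 1000 bp, 10 within 5000 bp, 45 within 20000 bp, 41 within 50000 bp, 23 within 100000 bp and 34 farther, each count leaving out the nearer ones. The nearest hypoxia-only peak was 1067.75 kb away in the median, and 14 members had such a peak within 100000 bp.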

How the data were processed

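MSCs at 2% and 21% oxygen gave 12 libraries in 6 groups of 2. According to the methods, the authors aligned to mm10 by Bowtie2, dropped duplicate reads by Picard, and ran the differential mode of chromstaR between the oxygen levels (bin 1000, step 500, mapping quality of at least 15). The deposited lists, 4 in all, hold 1 score per interval, and the definition and unit of that score are not given in the sources used here. The intervals of the lists either coincide or do not overlap, so touching intervals can be cut from a single enriched stretch. The lists hold no read counts, so depth, input and replicate spread were not analysed, and no test was run.

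Members were intervals of the normoxia list sharing no base with the hypoxia list. Starts, exons and gene bodies came from GENCODE M21 (protein-coding genes; for introns, the longest transcript), and sequence from the RefSeq copy of GRCm38. Scripts (Python 3.11.15, pandas 2.3.3, scipy 1.17.1) were tested on simulated intervals. Shares have Wilson and medians order-statistic intervals of 95%, for counting error only. Members and lists were chosen with earlier results of these data known. Genes named were those with several members, with peaks of both kinds, at H3K4me3 or on a list, and the 10 widest and 10 highest-scoring members, unless stated. Results for 1 gene list are not reported here. Of the list symbols without a wildcard, 670 of 672 matched the annotation, and 151 members' nearest genes had an entry in the RefSeq promoter table. Alternatives were other windows, all annotated genes, gene bodies in place of starts, a cover of 50%, and stricter choices of members.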

Additional observations from a re-analysis of the deposited data

How the results depend on the processing

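Of 79 alternative values, 46 moved by less than their counting interval or 1.5 times and 33 by more. No paired analysis was possible because the lists hold no values per library, and for the same reason no library could be left out. Asking for a cover of 50% changed nothing, since overlapping intervals coincide.

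Without the lowest-scoring 25% of the normoxia list (scores of 71 or lower), 35 of the 218 members were left. Their share at H3K4me3 was 2.86%, their median distance to H3K4me3 63000 bp, the share within 1000 bp of a coding start 11.4%, the median distance to one 35327 bp, the share in a gene body 51.4%, the share touching a shared peak 22.9%, the median GC 41.6%, and 1 gene had several. With no hypoxia peak allowed within 1000 bp, 153 members were left, with median distances of 45500 bp to H3K4me3 and 34651 bp to a start, 12.4% within 1000 bp of a start, and list counts of 1 for TGF-beta, 2 for matrix, 1 for adhesion and 1 for antioxidant genes. Counting H3K4me3 within 1000 bp as overlap gave 34.4%, a start window of 2500 bp gave 30.7%, and all annotated genes gave 29.4% within 1000 bp of a start, a median of 6937 bp and 70.2% in a gene.

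By gene body, the list counts were 1 for MAPK, osteogenic, adhesion and AP-1 genes and 0 for antioxidant genes. A motif window of 1000 bp raised the shares to 37.2% (AP-1), 49.5% (TEAD), 66.5% (RUNX), 38.1% (HRE), 33.5% (ARE) and 42.2% (C/EBP), by its greater length. In distal members, a set chosen after seeing the data, AP-1 was in 32.2%.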
